A study of Mus musculus with 29 samples.

Results

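The adipocyte genes described here are 10 mouse genes chosen by name because white fat cells are known for them: Adipoq, Lep, Cfd, Lpl, Fabp4, Plin1, Plin4, Cidec, Pparg and Car3. They were found by symbol among the 24411 symbols of the time course table and by mapped Ensembl identifier among the 55487 identifiers of the amputation table, and all 10 were found in both. The RNA came from digits of the left hindlimb of mice, taken beyond the metacarpophalangeal joint and freed of the nail, so each library can hold skin, bone, marrow, vessels and connective tissue together. In such bulk samples, fewer cells of a type and less RNA per cell cannot be told apart.

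All 29 libraries came from mice that had surgery on the left sciatic nerve. In spared nerve injury (SNI) the common peroneal and tibial branches were cut, and sham mice had the same operation with no branch cut. In the time course set of 17 libraries, sham and SNI mice had both been amputated through the third phalanx of that limb some days after surgery, and tissue was taken 7, 14 or 21 days after amputation, with 3 libraries in each group except sham day 21, which has 2. In the amputation set of 12 libraries all mice had SNI, and amputated and unamputated mice were compared at days 7 and 14, with 3 libraries in each of the 4 groups. The labels of the unamputated samples state treatment without amputation, yet they also carry a time after amputation and the tissue name of the regenerating digit; they are called unamputated here after their treatment label. The descriptions name 1 animal per library and call the replicates biological. The sources used here give no strain, sex or age.

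White adipocytes store triglyceride in a single large lipid droplet and release hormones. The nuclear receptor PPARG, the protein of Pparg, acts with C/EBP factors to switch on most of the other genes. Lipoprotein lipase (Lpl) frees fatty acids from circulating lipoproteins and FABP4 carries them inside the cell; perilipin 1 (Plin1), perilipin 4 (Plin4) and CIDEC sit on the lipid droplet; adiponectin (Adipoq), leptin (Lep) and adipsin, the complement factor D encoded by Cfd, are secreted. Car3 encodes carbonic anhydrase 3, which is abundant in fat cells and also in slow muscle fibres. Several of the genes are used by other cells: Lpl and Fabp4 by macrophages, Fabp4 by capillary endothelium and Pparg by sebaceous gland cells.

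Promoter sequences are shown because most of these genes varied together over libraries, and C/EBP factors are their textbook regulators. The RefSeq promoter table of build GRCm38.p6 held sequences for 7 of the 10 genes, with 10 start sites between them. A C/EBP type core, TTGCNNAA on either strand, was searched in the 250 bases before each start site. It was present at 4 of these 10 start sites, in Lep, Plin1, Cidec and Pparg, against 9.56% of 32851 promoters of the same length. The matches are in capitals, each sequence is written 5′ to 3′ on the strand of its gene, and position -1 is the base before the start site. The Lep sequence is chr6:29059971-29060220 on the plus strand with its match starting at position -55. The Plin1 sequence is chr7:79732777-79733026 on the minus strand, with matches starting at -187 and -58. The Cidec sequence, of its listed start site 2, is chr6:113434765-113435014 on the minus strand, with its match starting at -198. The Pparg sequence, of its listed start site 3, is chr6:115421816-115422065 on the plus strand, with matches starting at -215 and -16.
Lep: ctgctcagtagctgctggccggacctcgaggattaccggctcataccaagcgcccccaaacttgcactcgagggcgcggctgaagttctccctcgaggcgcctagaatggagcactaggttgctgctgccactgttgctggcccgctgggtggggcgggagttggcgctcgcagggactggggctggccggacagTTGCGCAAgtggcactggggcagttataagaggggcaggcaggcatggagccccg
Plin1: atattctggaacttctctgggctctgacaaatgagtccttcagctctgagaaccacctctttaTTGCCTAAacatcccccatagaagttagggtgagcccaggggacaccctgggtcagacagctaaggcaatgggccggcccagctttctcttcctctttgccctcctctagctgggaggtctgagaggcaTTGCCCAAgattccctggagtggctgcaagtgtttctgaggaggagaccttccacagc
Cidec: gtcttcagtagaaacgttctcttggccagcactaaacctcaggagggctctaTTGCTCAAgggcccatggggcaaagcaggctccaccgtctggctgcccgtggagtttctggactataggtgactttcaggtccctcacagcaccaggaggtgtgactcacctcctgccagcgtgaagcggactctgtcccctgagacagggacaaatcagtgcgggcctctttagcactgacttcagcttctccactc
Pparg: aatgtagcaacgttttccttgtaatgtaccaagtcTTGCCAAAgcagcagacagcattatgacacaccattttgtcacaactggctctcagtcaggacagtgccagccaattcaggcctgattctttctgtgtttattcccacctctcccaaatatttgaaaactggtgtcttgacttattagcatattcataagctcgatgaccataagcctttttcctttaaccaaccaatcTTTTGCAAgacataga

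Adipoq and Cfd, the pair of genes whose values were closest over libraries, had no TTGCNNAA match in their windows. An EBF type core, CCCNNGGG on either strand, was present at 4 of the 10 start sites, in Cidec, Plin1 and Plin4, and in 11.8% of all promoters. The direct repeat of AGGTCA spaced by 1 base (DR1), bound by PPARG with its partner RXRA, was in none of the members' windows and in 0.033% of all promoters. A match is a run of letters only, and no binding was measured.

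Library totals ran from 35654192 to 56809440 counts in the time course set and from 31274245 to 43315729 in the amputation set. All 10 genes passed the filter on low counts in both sets, and none was at 0 in any library; the lowest count was 8, for Lep. Levels are given as CPM, counts per 1000000 of a library size scaled by the TMM method, and the sets were scaled and tested apart. In the time course set 2 libraries stood apart with low TMM scaling factors: sham day 21 replicate 1, with 0.633, and SNI day 7 replicate 2, with 0.761, while the next lowest factor was 0.943. In these libraries Col1a1, the collagen gene of bone and connective tissue, was at 99 and 51.6 CPM against a median of 3740 CPM in the other 15. Differences of the 10 genes that rest on them are given with and without them. The number of libraries per group and the spread between replicates also limit precision. The biological coefficient of variation, a measure of that spread, was 0.393 in the time course set and 0.17 in the amputation set.

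Per kilobase of transcript, the scale on which genes can be compared, Fabp4 and Cfd were the most abundant in both sets. In the time course set the median over 17 libraries was 83.8 CPM per kilobase for Fabp4 and 80.3 for Cfd, followed by 34.2 for Car3, 12.0 for Lpl, 10.0 for Adipoq, 6.62 for Pparg, 2.76 for Cidec, 2.18 for Plin1, 1.61 for Plin4 and 0.194 for Lep. The ranges of neighbours in this order overlapped throughout, for example from 41.5 to 526 for Fabp4 and from 30.9 to 567 for Cfd, except that Lep, with at most 0.66, lay below the lowest Plin4 value of 0.961. In the amputation set the order was the same for Fabp4, Cfd, Car3, Lpl, Adipoq and Pparg, with medians of 63.5, 62.4, 37.1, 13.4, 8.16 and 7.04 CPM per kilobase. Plin4, at 6.18 CPM per kilobase in that set, stood above Plin1 at 3.91 and Cidec at 2.78, and Lep was again last at 0.185. In that set Cfd, with at least 55.9, lay wholly above Car3, Car3 wholly above Lpl, and every gene wholly above Lep, while the other neighbours overlapped. The sets were normalized separately, so their levels are set side by side without a test.

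The genes differed widely in how much they varied. Between the lowest and the highest time course library, Adipoq spanned 19.9-fold in CPM, Cfd 18.4-fold, Cidec 16.3-fold and Fabp4 12.7-fold. Over the 15 libraries other than the 2 that stood apart, these spans were 8.63-fold, 7.58-fold, 8.51-fold and 5.54-fold. Lpl spanned 2.74-fold and Pparg 1.94-fold in all 17 libraries. In the amputation set the span was from 1.49-fold for Pparg to 3.74-fold for Lep.

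**Figure D1:**
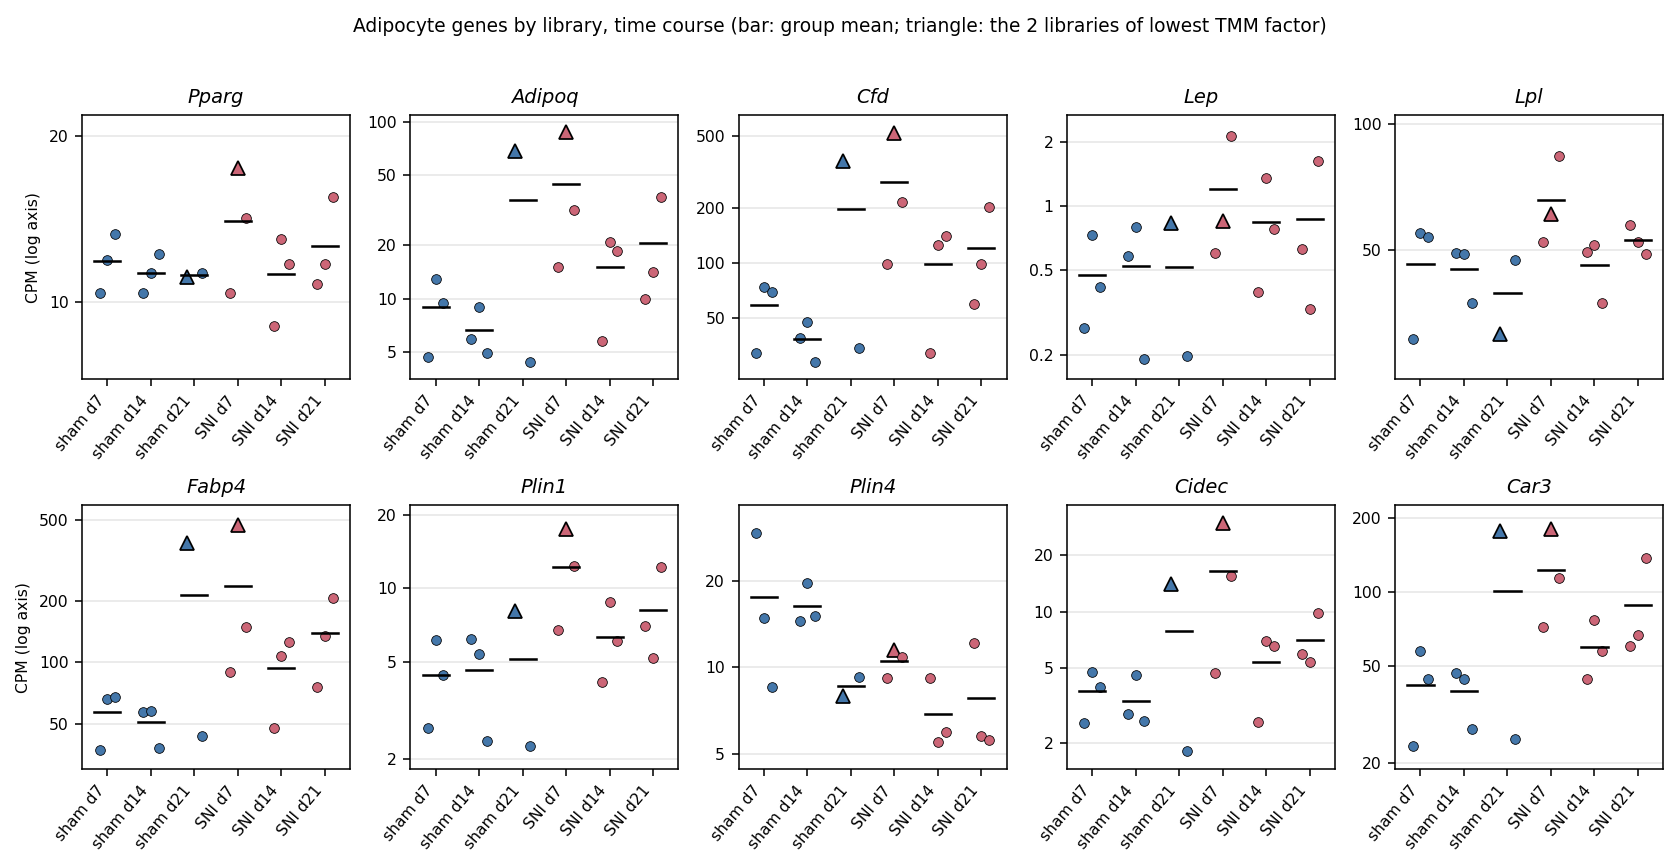
CPM on a log axis of the 10 genes in the 17 time course libraries, by group, with sham in blue and SNI in red; each point is 1 library, bars are group means and triangles mark the 2 libraries of lowest TMM factor. For Adipoq, Fabp4, Cfd and Car3 both triangles lie above the other 15 libraries, and for Plin4, Lpl, Lep and Pparg they lie among them or close by.

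The first question was whether cutting the nerve changed the adipocyte genes during regeneration. None of the 10 passed the test for SNI against sham, whether averaged over days or at day 7, 14 or 21 (edgeR quasi-likelihood test, Benjamini-Hochberg adjusted p under 0.05 over 16084 genes, percent of all genes called 0). At an unadjusted p under 0.05 the averaged comparison held 2 of the 10, Plin1 and Plin4, against 14% of all genes. DESeq2 called 163 genes in the averaged comparison, 1.01% of those tested, and none of the 10.

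Of the secreted products, Adipoq was at 4.69, 12.9 and 9.52 CPM in the sham day 7 libraries and at 15.1, 87.3 and 31.9 CPM in the SNI day 7 libraries. At day 14 it was at 5.96, 9.02 and 4.95 CPM in sham and 5.76, 20.8 and 18.7 CPM in SNI libraries. At day 21 it was at 68 and 4.38 CPM in sham and 9.93, 14.2 and 37.8 CPM in SNI libraries. The groups did not overlap at day 7, SNI being higher, and overlapped at the later days, where the high sham library of day 21 was the one that stood apart. The mean over days was 26.8 CPM ± 25 (SD, n = 9) with SNI and 14.9 ± 22 (SD, n = 8) with sham, a log2 difference of 0.89 ± 0.53 (SE) with a 95% interval from -0.24 to 2.03 (adjusted p = 0.427).

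Cfd, which opens the alternative complement pathway, was at higher values than Adipoq. In sham libraries it was at 31.9, 74 and 69 CPM at day 7, at 38.6, 47.2 and 28.5 CPM at day 14 and at 365 and 34 CPM at day 21. In SNI libraries it was at 98.6, 523 and 216 CPM at day 7, at 31.7, 126 and 140 CPM at day 14 and at 59.1, 98.8 and 203 CPM at day 21. At day 7 every SNI library lay above every sham library, and at day 21 the 2 sham libraries lay on either side of all 3 SNI libraries. Its averaged log2 difference was 0.97 ± 0.49 (SE, adjusted p = 0.379). Lep, the other hormone, stayed between 0.192 and 2.15 CPM in all 17 libraries, and its averaged difference was 0.93 ± 0.47 (SE, adjusted p = 0.373).

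Among the genes of lipid uptake and carriage, Fabp4 was at 37.2, 66 and 67.1 CPM in sham day 7 libraries, against 89.6, 471 and 148 CPM in SNI day 7 libraries. At day 14 it was at 56.8, 57.6 and 38.1 CPM with sham and 47.4, 107 and 126 CPM with SNI, and at day 21 at 383 and 43.2 CPM with sham and 75.1, 135 and 206 CPM with SNI. The day 7 groups did not overlap, and the averaged log2 difference was 0.77 ± 0.43 (SE, adjusted p = 0.409). Lpl had a smaller difference: its means were 55.0 CPM with SNI and 44.3 CPM with sham, a log2 difference of 0.32 ± 0.16 (SE, adjusted p = 0.368). Pparg, the transcription factor, was the flattest of the 10, at 12.6 CPM with SNI and 11.5 CPM with sham, and the 95% interval of its log2 difference ran from -0.14 to 0.42 (adjusted p = 0.585).

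The lipid droplet genes had averaged differences of opposite sign. Plin1 had a mean of 8.86 CPM with SNI and 4.68 CPM with sham, a log2 difference of 0.86 ± 0.33 (SE, adjusted p = 0.337), and Cidec had one of 0.88 ± 0.42 (SE, adjusted p = 0.362). Plin4, which coats small nascent droplets and is also made in muscle, was at 29.3, 14.9 and 8.56 CPM in sham day 7, 14.5, 19.6 and 15.1 CPM in sham day 14 and 7.99 and 9.28 CPM in sham day 21 libraries. In SNI libraries Plin4 was at 9.21, 11.5 and 10.9 CPM at day 7, 9.17, 5.53 and 5.96 CPM at day 14 and 12.2, 5.78 and 5.59 CPM at day 21. It was the only one of the 10 with a negative averaged difference where 51.5% of all genes had a positive one, -0.71 ± 0.24 (SE, 95% interval -1.23 to -0.19, adjusted p = 0.337), and only at day 14 did its SNI libraries all lie below its sham libraries, as those of 12.2% of all genes did. Car3 was at 89.9 CPM with SNI and 55.7 CPM with sham, a log2 difference of 0.65 ± 0.36 (SE, adjusted p = 0.403).

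At day 7 the log2 difference was positive for 9 of the 10 genes with a median of 1.51, against 51% of all genes with a median of 0.02. The day 7 estimates were 2.31 ± 0.90 for Adipoq, 2.26 ± 0.84 for Cfd, 2.13 ± 0.72 for Cidec, 2.06 ± 0.74 for Fabp4, 1.55 ± 0.60 for Car3 and 1.46 ± 0.55 for Plin1 (SE, adjusted p = 0.301 for each). SNI libraries lay wholly above sham libraries for 5 of the 10, Adipoq, Plin1, Fabp4, Cfd and Car3, where 13.7% of all genes did so, and 6 of the 10 had an unadjusted p under 0.05 where 13.6% of all genes had one. At day 14 the median difference was 0.63, and the 1 gene with an unadjusted p under 0.05 was Plin4, at -1.25 ± 0.41 (SE, adjusted p = 0.578, 5.93% of all genes). At day 21, 4 of the 10 differences were positive, close to the share of 39.7% over all genes, and the median was -0.15. The SNI libraries lay wholly above the sham libraries there for 1 of the 10, Lpl, and for 4.36% of all genes. The difference between days in the SNI effect was tested as an interaction, which called no gene in edgeR, with 0 of the 10 at an unadjusted p under 0.05 (3.66% of all genes), and 3 genes, 0.0187%, in DESeq2, none of them among the 10.

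The summed level of the 10 genes was 1070 CPM in sham day 21 replicate 1 and 1400 CPM in SNI day 7 replicate 2, against 169 to 678 CPM in the other 15 libraries. Relative to the median of the other 15 time course libraries, sham day 21 replicate 1 and SNI day 7 replicate 2 were 6.85-fold and 8.8-fold higher for Adipoq, 5.71-fold and 7.02-fold for Fabp4, and 5.29-fold and 7.57-fold for Cfd. Lpl stood at 0.638-fold and 1.24-fold, Plin4 at 0.861-fold and 1.24-fold and Pparg at 0.948-fold and 1.5-fold of that median. Both libraries lay above all 15 others for 4 of the 10 genes, Adipoq, Fabp4, Cfd and Car3, as they did for 23.3% of all genes. For 5 of the 10, those 4 and Cidec, both libraries were at least 2-fold above the median, as for 14% of all genes.

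The size of that excess went with transcript length, taken from the principal transcript of each gene in the GENCODE M21 annotation. Fabp4 (896 bases), Cfd (922 bases) and Adipoq (1292 bases) have the shortest transcripts of the 10 and the largest excess, and Lpl (4115 bases) and Plin4 (5756 bases) have the longest and none in sham day 21 replicate 1. Genes of similar length still differed: Cidec (1720 bases) stood at 2.99-fold and 6.29-fold, and Pparg (1767 bases) at 0.948-fold and 1.5-fold. Over the 10 genes Pearson's r between log2 ratio and log2 length was -0.87 in sham day 21 replicate 1 and -0.85 in SNI day 7 replicate 2, and over 15454 genes it was -0.57 and -0.47. These are correlations across genes of the same library, and genes are not independent replicates. Of all genes with transcripts of 61 to 1606 bases, 44.6% were at least 2-fold above the median in both libraries, and of those with 4766 bases or more, 1.16% were. The part of transcript length in the values of the 10 genes was not tested. Some markers of other cells also moved in these libraries: S100a8, a neutrophil gene, was at 108 and 4420 CPM against a median of 8.26 CPM, and Hba-a1, a haemoglobin gene, at 1610 and 902 against 248 CPM. Other markers of these cells stayed near the median in sham day 21 replicate 1. The granulocyte gene Mpo was at 2.34 and 673 against 1.76 CPM, and the erythroid gene Slc4a1 at 1.36 and 4.02 against 1.34 CPM.

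**Figure D2:**
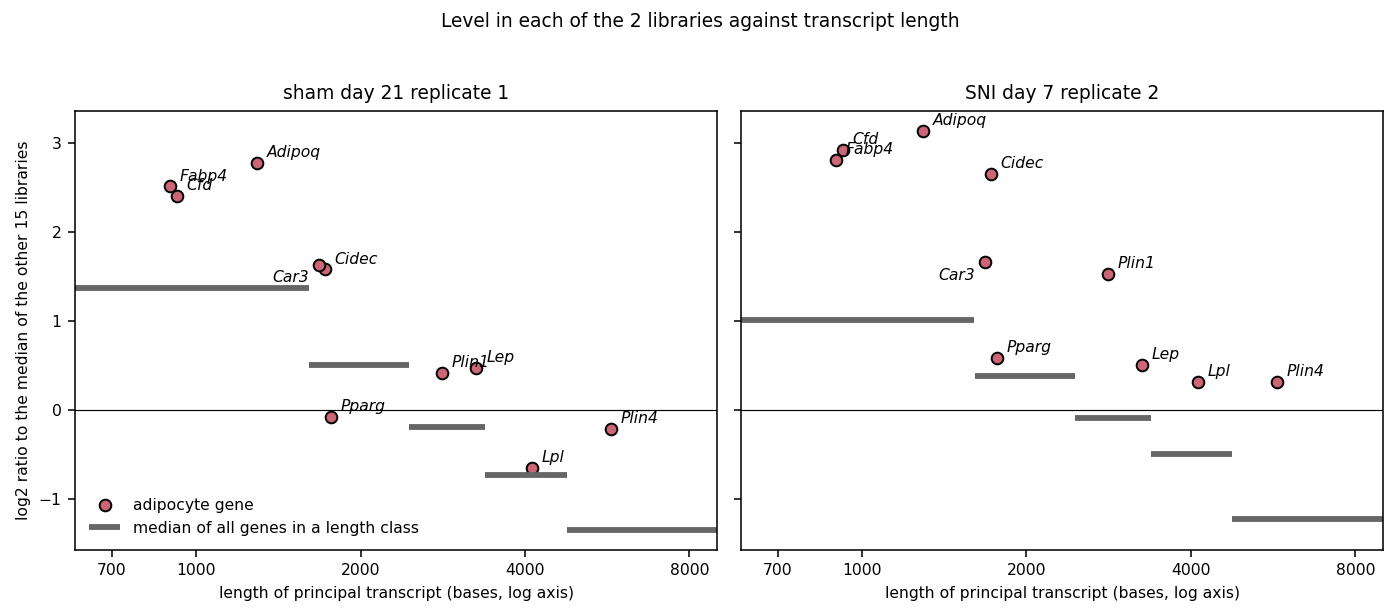
Log2 ratio of each of the 10 genes to its median in the other 15 time course libraries, against transcript length in bases on a log axis, for sham day 21 replicate 1 and SNI day 7 replicate 2; grey bars are medians of all genes in 5 length classes. In both panels Fabp4, Cfd and Adipoq lie at the upper left, and the class medians fall from 1.37 and 1.01 for the shortest class to -1.35 and -1.23 for the longest.

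Without both of these libraries no gene passed the threshold for the averaged SNI difference. It was 1.60 ± 0.44 for Adipoq, 1.55 ± 0.43 for Cfd, 1.22 ± 0.30 for Fabp4, 1.20 ± 0.29 for Car3 and 1.14 ± 0.33 for Plin1 (SE, adjusted p = 0.0742 for each), and 1.36 ± 0.35 for Cidec. Plin4 was at -0.75 ± 0.28 (SE, adjusted p = 0.0777), Lpl at 0.26 ± 0.17 (SE, adjusted p = 0.24) and Pparg at 0.08 ± 0.13 (SE, adjusted p = 0.636). The median of the 10 was 1.21 and 8 of the 10 had an unadjusted p under 0.05, a mark that 45.2% of 16321 genes also reached. At day 7, without both, the median was 1.16 and the differences were 1.41 ± 0.64 for Adipoq, 1.46 ± 0.63 for Cfd, 1.44 ± 0.52 for Cidec, 1.1 ± 0.46 for Fabp4, 1.19 ± 0.43 for Car3 and 1.14 ± 0.50 for Plin1 (SE, adjusted p = 0.523 for each). Pparg moved from 0.24 to 0.09 there. At day 21 the sham group was then 1 library, assumed to vary like the others, and 5 of the 10 differences changed from negative to positive: the median moved from -0.15 to 1.81, with Adipoq at 2.23 ± 0.95, Fabp4 at 1.68, Cidec at 1.96, Cfd at 1.82 and Car3 at 1.81 (adjusted p from 0.531 to 0.821 over the 10 genes). Plin4 stayed negative at -0.23. The day 21 median was thus above that of day 7 without both libraries and below it with them. Leaving out sham day 21 replicate 1 alone gave a day 21 median of 1.81 too, while it was -0.5 without sham replicate 2 and between -0.24 and 0.03 without 1 of the SNI libraries of that day. The averaged median of 0.81 was 1.35 without sham day 21 replicate 1. The day 14 median of 0.63 was 0.26 without SNI day 14 replicate 2 and 0.33 without sham day 14 replicate 3.

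Within a surgery, none of the 10 and none of all genes (0%) was called between days. From day 7 to day 14 the median log2 difference was -0.09 in sham and -0.99 in SNI libraries, and from day 7 to day 21 in SNI libraries it was -0.53, with all 10 SNI differences negative in both cases, where 53.7% and 50.1% of all genes had a positive one. These comparisons share the SNI day 7 libraries. Without SNI day 7 replicate 2 the day 14 median was -0.65, and the day 21 median was -0.32 with 2 of the 10 differences positive, Fabp4 and Pparg. In sham libraries the day 21 median of 0.64 became -0.84 without replicate 1 of that day and 1.37 without replicate 2. Either way sham day 21 was then 1 library, in the second case the one of lowest TMM factor, 0.633.

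The amputation set asked how the amputated digit differs from the unamputated one when the nerve is cut in both. Averaged over days 7 and 14, 3 of the 10 genes rose after amputation, Lpl, Fabp4 and Car3, and 1 fell, Plin4. Over all 17475 genes tested 11.8% were called, 5.71% higher and 6.08% lower. DESeq2 called 6 of the 10 and 17.5% of all genes, adding Cidec (adjusted p = 0.0167) and Cfd (adjusted p = 0.0114). The difference was positive for 9 of the 10 genes, against 51.9% of all genes, with a median of 0.4 against 0.01.

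Lpl was at 89.4, 80.7 and 74.2 CPM in amputated and 52.4, 57.0 and 54.0 CPM in unamputated libraries at day 7, and at 53.7, 64.0 and 52.2 CPM in amputated and 58.6, 43.7 and 43.7 CPM in unamputated libraries at day 14. The day 7 groups lay apart and the day 14 groups overlapped. Its mean was 69.0 CPM ± 15 after amputation and 51.6 ± 6.5 without (SD, n = 6 each), a rise of 0.40 ± 0.086 on the log2 scale (SE, 95% interval 0.21 to 0.59, adjusted p = 0.0155). Fabp4 was at 74.7, 83.7 and 82.8 CPM against 55.2, 56.2 and 44.5 CPM at day 7, and at 53.7, 84.6 and 57.6 CPM against 60.0, 49.8 and 54.7 CPM at day 14. At day 14 its 1 high amputated library was replicate 2, and its averaged rise was 0.44 ± 0.11 (SE, adjusted p = 0.0249). Car3 had a mean of 72.0 CPM ± 9.4 after amputation and 53.9 ± 9.7 without (SD, n = 6 each), a rise of 0.41 ± 0.099 (SE, adjusted p = 0.0239). Its day 7 libraries were at 79.6, 80.7 and 80.6 CPM against 49.7, 59.2 and 48.6 CPM. Each of the Fabp4 and Car3 calls was lost when any of unamputated day 7 replicate 1, day 14 replicate 2 or day 14 replicate 3 was left out, with adjusted p of up to 0.0621 for Fabp4 and 0.0646 for Car3.

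The secreted products did not pass the test. Cfd was at 111, 91 and 104 CPM in amputated and 56.3, 55.9 and 56.4 CPM in unamputated libraries at day 7. At day 14 it was at 53.6, 109 and 58.6 CPM in amputated and 82.3, 51.5 and 51.8 CPM in unamputated libraries. Amputated replicate 2 of day 14 was high for Adipoq, Cfd, Fabp4 and Cidec alike. Unamputated replicate 1 of day 14 was high for Adipoq and Cfd. The spread of that group was small for Fabp4 (54.8 CPM ± 5.1) and Cidec (4.85 CPM ± 0.51, SD, n = 3 each). The averaged difference was 0.56 ± 0.18 for Cfd (SE, adjusted p = 0.0718), 0.47 ± 0.21 for Adipoq (SE, adjusted p = 0.157) and 0.23 ± 0.30 for Lep (SE, adjusted p = 0.658). The Cfd call appeared without unamputated day 14 replicate 1 (adjusted p = 0.0397) and without amputated day 14 replicate 1 (adjusted p = 0.0399). Cidec had a difference of 0.54 ± 0.16 (SE, adjusted p = 0.0514, and 0.039 or 0.044 without amputated day 14 replicate 1 or 3), Plin1 one of 0.32 ± 0.14 (SE, adjusted p = 0.147) and Pparg one of 0.12 ± 0.11 (SE, adjusted p = 0.491).

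**Figure D3:**
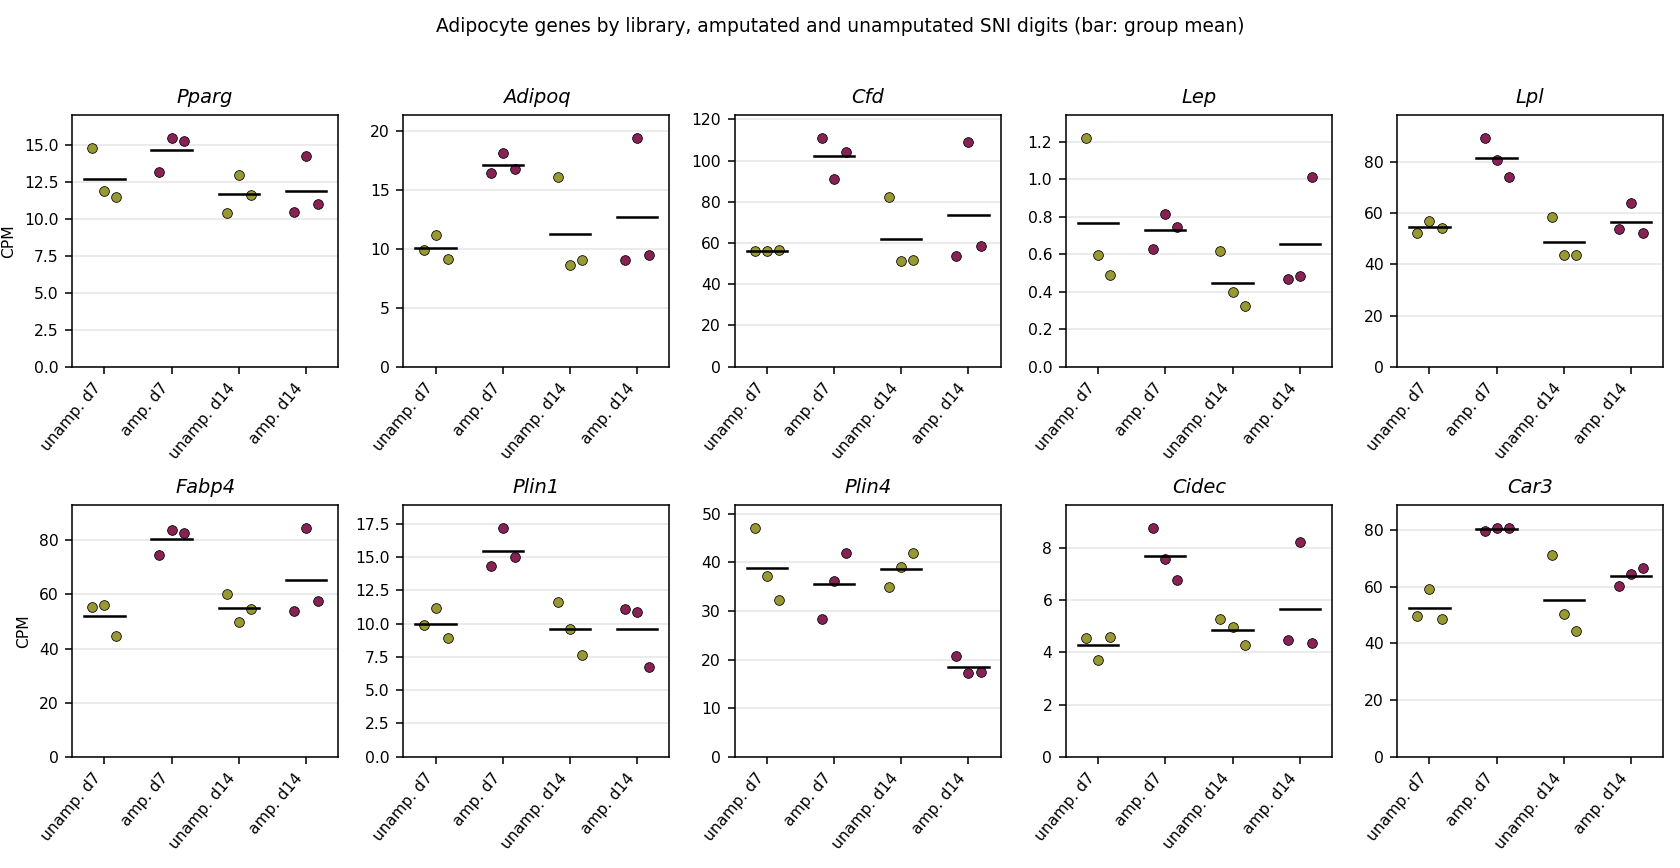
CPM, on a linear axis from 0, of the 10 genes in the 12 amputation set libraries, by group; each point is 1 library and bars are group means. At day 7 the amputated libraries of Adipoq, Plin1, Lpl, Fabp4, Cidec, Cfd and Car3 lie above the unamputated ones, and at day 14 the amputated Plin4 libraries lie below.

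At day 7 amputated libraries were wholly above unamputated ones for 7 of the 10 genes, Adipoq, Plin1, Lpl, Fabp4, Cidec, Cfd and Car3, where 10.4% of all genes were. Only Lpl passed the threshold, as did 1.35% of all genes, with 81.4 CPM ± 7.6 against 54.4 ± 2.3 (SD, n = 3 each) and a rise of 0.58 ± 0.12 (SE, adjusted p = 0.0379). With 1 library left out its adjusted p was as high as 0.148, without unamputated day 7 replicate 1, and was also over 0.05 without any other day 7 library except amputated replicate 3, and without amputated day 14 replicate 3. The other day 7 differences were 0.86 ± 0.26 for Cfd, 0.85 ± 0.23 for Cidec, 0.76 ± 0.29 for Adipoq, 0.63 ± 0.15 for Fabp4, 0.63 ± 0.19 for Plin1 and 0.61 ± 0.14 for Car3 (SE, adjusted p from 0.0574 to 0.247). DESeq2 called 6 of the 10 and 4.16% of all genes at day 7. Without amputated day 14 replicate 2, edgeR called 4 of the 10 and 1.76% of all genes at day 7: Lpl, Fabp4 (adjusted p = 0.0114), Cidec (adjusted p = 0.024) and Cfd (adjusted p = 0.0253).

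Plin4 was the only one of the 10 that fell in the averaged comparison. At day 7 it was at 28.3, 36.2 and 41.9 CPM in amputated and 47.1, 37.2 and 32.3 CPM in unamputated libraries, which overlapped. At day 14 it was at 20.8, 17.2 and 17.5 CPM in amputated and 34.9, 39.1 and 42.0 CPM in unamputated libraries, which did not, as for 16.7% of all genes. Plin4 fell by 1.06 on the log2 scale at day 14 (SE 0.16, 95% interval -1.41 to -0.71, adjusted p = 0.0123), the only one of the 10 called there, where 2.75% of all genes were called. Between day 7 and day 14 of amputated digits it went from 35.5 to 18.5 CPM, a log2 change of -0.94 ± 0.16 (SE, adjusted p = 0.0178) in a comparison that called 0.607% of all genes. The day 14 call was lost without amputated day 14 replicate 3 (adjusted p = 0.054) or unamputated day 14 replicate 3 (adjusted p = 0.0572), and the change over time was lost without any of 4 libraries: amputated day 7 replicates 2 and 3 and amputated day 14 replicates 2 and 3 (adjusted p from 0.0706 to 0.0948). Averaged over days, Plin4 was at 27.0 CPM ± 10 after amputation and 38.8 ± 5.3 without (SD, n = 6 each), a fall of 0.60 on the log2 scale (log2 difference -0.60 ± 0.11, SE, adjusted p = 0.0092) that passed with each of the 12 libraries left out in turn, as did the Lpl rise.

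The other genes also stood lower at day 14 than at day 7 in amputated digits, all 10 differences being negative, where 50.2% of all genes had a positive one, with a median of -0.44 (-0.7 without amputated day 14 replicate 2), but Plin4 alone passed in edgeR and DESeq2, which called 2.59% of all genes, added Plin1 and Lpl. In unamputated digits the median over the same interval was 0.03 and none of the 10 was called by edgeR, DESeq2 or at an unadjusted p under 0.05, against 0.303%, 0.853% and 4.97% of all genes. The amputation effect was tested for a difference between days, and edgeR called no gene (0%). At an unadjusted p under 0.05 this test held 2 of the 10, Plin4 (adjusted p = 0.757) and Plin1 (adjusted p = 0.784), against 6.25% of all genes, and DESeq2 called 15 genes, 0.0858%, none of them among the 10.

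**Figure D4:**
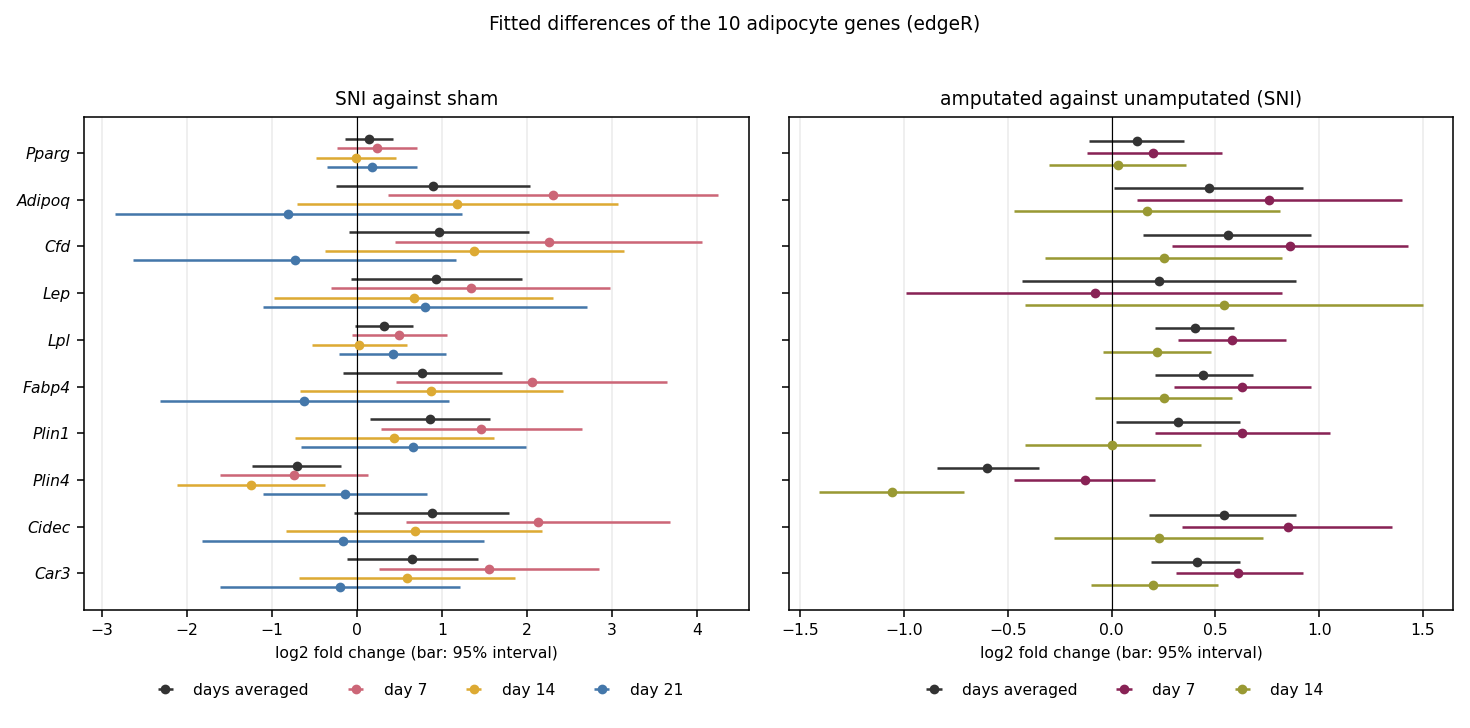
Log2 fold change with 95% interval of the 10 genes for SNI against sham (averaged, day 7, day 14, day 21) and amputated against unamputated (averaged, day 7, day 14). The SNI intervals are wide, with Adipoq at day 7 from 0.36 to 4.25, and the amputation intervals are narrower, with Plin4 at day 14 from -1.41 to -0.71.

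Other genes of fat cells are given by list for amputated against unamputated digits averaged over days, a comparison in which 11.8% of all genes were called and the median log2 difference was 0.01. Of 16 other white adipocyte markers, 2 rose and 1 fell with a median of 0.23: Aoc3, an amine oxidase of the fat cell surface, rose from 16.2 to 21.4 CPM (log2 difference 0.40 ± 0.06, SE, adjusted p = 0.00279), Retn, encoding resistin, rose from 1.2 to 2.22 CPM (0.92 ± 0.22, adjusted p = 0.022), and Lipe, encoding hormone-sensitive lipase, fell from 37.6 to 30.3 CPM (-0.32 ± 0.082, adjusted p = 0.0287). Of 14 lipid droplet and lipolysis genes, with a median of 0.04, 2 rose and 1 fell, the droplet coat gene Plin3 (0.34 ± 0.066, adjusted p = 0.00977) and the seipin gene Bscl2 (0.25 ± 0.058, adjusted p = 0.0199) rising and Lipe falling. Of 15 genes of triglyceride and fatty acid synthesis, with a median of 0.03, 2 rose, Thrsp (0.81 ± 0.2, adjusted p = 0.0235) and the glycerol phosphate dehydrogenase gene Gpd1 (0.45 ± 0.13, adjusted p = 0.0413).

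Of 9 genes of fatty acid uptake and lipoprotein lipase partners, with a median of 0.04, 1 rose, Lmf1 (0.37 ± 0.11, adjusted p = 0.0412), whose product folds lipoprotein lipase. Gpihbp1, which holds that enzyme on capillary walls, missed the threshold at 0.66 ± 0.2 (adjusted p = 0.0532). Of 12 adipogenic transcription factors, with a median of 0.08, 1 rose, the liver X receptor gene Nr1h3 (0.7 ± 0.17, adjusted p = 0.0246), and 1 fell, the coactivator gene Ppargc1a (-1.11 ± 0.3, adjusted p = 0.0353). Of 9 adipokines and adipokine receptors, with a median of 0.23, Retn rose and Cdh13, encoding an adiponectin-binding cadherin, fell (-0.25 ± 0.06, adjusted p = 0.0237). Of 9 adipocyte progenitor genes, with a median of 0.04, Icam1 rose (0.46 ± 0.09, adjusted p = 0.0109) and Anxa3 fell (-0.34 ± 0.086, adjusted p = 0.0282). Leaving out 1 library moved these counts of calls to between 0 and 5 a list. Of the 8 thermogenic genes only Ppargc1a was called, and Ucp1, the defining gene of brown and beige fat, was under 1 CPM in every library of both sets.

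For SNI against sham no gene of these lists was called. Averaged over days the median log2 difference was 0.19 in other white adipocyte markers, 0.09 in lipid droplet and lipolysis genes, -0.32 in triglyceride and fatty acid synthesis, 0.23 in fatty acid uptake and -0.26 in adipogenic transcription factors, against 0.81 in the 10 genes and 0.01 in all genes. Without the 2 libraries that stood apart these list medians were 0.46, 0.24, -0.45, 0.37 and -0.32, against 1.21 in the 10 genes. In lists of markers of other cell types they were 1.92 in neutrophil, 1.08 in erythroid and 0.64 in macrophage markers. They were 0.32 in skeletal muscle, 0.31 in sebaceous gland, 0.03 in osteoblast, -0.05 in capillary endothelium and -0.2 in keratinocyte markers. At day 7 only 1 of the 12 adipogenic transcription factors had a positive difference, with a median of -0.62, and without the 2 libraries 2 of the 12 did, with a median of -0.38. In that comparison Cd36, a fatty acid carrier of the cell surface, had means of 139 and 71.7 CPM with SNI and sham (log2 difference 0.95 ± 0.32, SE, adjusted p = 0.301, and 0.71 without the 2 libraries), and Ppargc1a had means of 0.651 and 2.02 CPM.

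Markers of other cell types moved in the same libraries. In the time course set the summed level of 8 erythroid markers was 161 to 589 CPM in sham and 417 to 1070 CPM in SNI libraries at day 7, 131 to 183 against 183 to 438 CPM at day 14, and 117 and 1920 against 272 to 646 CPM at day 21. The highest was sham day 21 replicate 1. Over the 17 libraries Pearson's r of its log2 value with that of the gene was 0.91 for Adipoq, 0.90 for Cfd, 0.85 for Fabp4 and -0.34 for Plin4. In the 15 libraries left without the 2 that stood apart these were 0.86, 0.85, 0.75 and -0.38. The libraries share scaling and group, so these are descriptions only. At day 7 the neutrophil sum was 35.1 to 46.4 CPM in sham and 84.0 to 15800 CPM in SNI libraries. The 15800 CPM was in SNI day 7 replicate 2. The sum was 10.3 to 16.9 against 57.8 to 232 CPM at day 14, and 46.3 and 273 against 16.0 to 79.0 CPM at day 21. Macrophage sums were 326 to 460 against 367 to 595 CPM at day 7 and 217 to 243 against 364 to 709 CPM at day 14. Keratinocyte sums were 59900 to 68400 against 45100 to 51600 CPM at day 7 and 66700 to 73600 against 43500 to 63000 CPM at day 14. Both overlapped at day 21. The osteoblast sum was lowest in the 2 libraries that stood apart, 127 CPM in SNI day 7 replicate 2 and 521 CPM in sham day 21 replicate 1. In the others it was 1030 to 13200 CPM. Col1a1 had the highest level of that list, with a median of 3740 CPM in the other 15 libraries. Not all of the list was low in sham day 21 replicate 1, where Bglap stood at 2.18-fold and Bglap2 at 1.31-fold of that median. The capillary endothelium sum varied little, from 213 to 288 CPM, but its members moved both ways in the 2 libraries that stood apart. In sham day 21 replicate 1 and SNI day 7 replicate 2, Cldn5 was at 3.09-fold and 2.01-fold of the median of the other 15. Tie1 was at 0.131-fold and 0.319-fold of it. The skeletal muscle sum was at most 8.41 CPM, with 8 of its 10 markers under 1 CPM in every library. The part of these cell types in the SNI differences was not tested.

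In the amputation set some markers of other cells were called as well. The counts of calls below are for both days averaged, where 11.8% of all genes were called. Of 10 capillary endothelium markers, 5 rose and all 10 differences were positive with a median of 0.4, led by Cldn5, a tight junction gene (0.58 ± 0.07, adjusted p = 0.000988), with Esam, Pecam1, Cdh5 and Tie1 the others called. Their summed level was 268 to 305 CPM in amputated and 166 to 234 CPM in unamputated libraries at day 7, and 220 to 262 against 184 to 220 CPM at day 14. Of 6 erythroid markers 1 rose, Slc4a1 (1.58 ± 0.28, adjusted p = 0.00692), with a summed level of 185 to 394 against 83.3 to 141 CPM at day 7 and 101 to 312 against 120 to 207 CPM at day 14. Of 8 keratinocyte markers 4 fell, the genes of differentiating layers Krt1 (-0.78 ± 0.081, adjusted p = 0.000314), Krt10, Flg and Lor, and 1 rose, Krt15, with a sum of 48900 to 54300 against 72000 to 82400 CPM at day 7. Of 8 osteoblast markers 2 rose, Dmp1 and Ibsp, and of 10 macrophage markers 1 did, Gpnmb, while none of 10 neutrophil, 7 skeletal muscle or 7 sebaceous gland markers tested was called. Over the 12 libraries r with the keratinocyte sum was -0.85 for Fabp4 and 0.25 for Plin4, and r with the endothelium sum was 0.72 for Car3 and 0.66 for Lpl. The part of these cell types in the rise of Lpl, Fabp4 and Car3 was not tested.

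**Figure D5:**
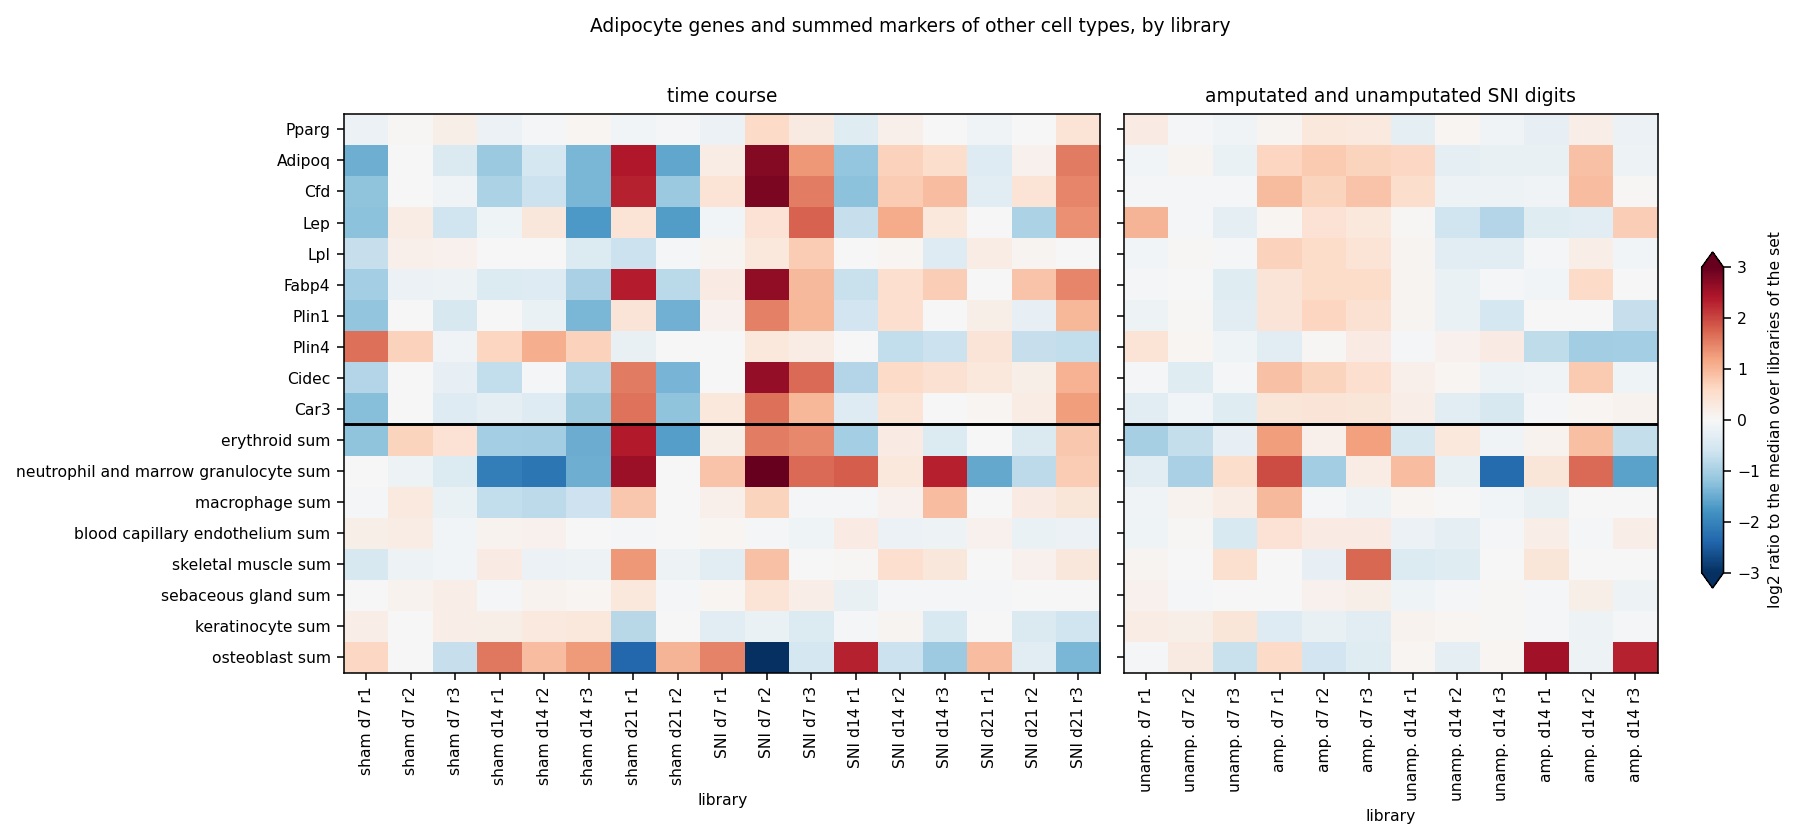
Log2 ratio to the median over the libraries of each set, for the 10 genes and for the summed CPM of 8 marker lists, with 1 column per library; the colour scale ends at 3 in either direction. Sham day 21 replicate 1 and SNI day 7 replicate 2 are red for Adipoq, Fabp4, Cfd and the erythroid sum, and blue for the osteoblast sum.

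The 10 genes did not vary as a single block. Over the 17 time course libraries Pearson's r of a gene's log2 CPM with the mean of the other 9 was 0.97 for Cidec, 0.94 for Plin1, 0.92 for Adipoq and Car3, 0.91 for Cfd, 0.86 for Fabp4, 0.77 for Lep, 0.68 for Pparg, 0.37 for Lpl and -0.43 for Plin4. In the 15 libraries left without the 2 that stood apart, Cidec was at 0.96, Lpl at 0.59 and Plin4 at -0.55. Over the 12 amputation set libraries Lpl was at 0.89, Adipoq, Fabp4 and Cfd at 0.88, Lep at 0.3 and Plin4 at -0.05. Adipoq and Cfd were the closest pair, with r of 0.99 in the 17, 0.98 in the 15 and 0.96 in the 12 libraries. The 9 pairs with Plin4 had a median r of -0.36 in the time course set, and the 36 pairs without it one of 0.74.

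Outside the 10, the gene most alike over the 17 time course libraries was Trf, encoding transferrin, with r of 0.93 to the mean of the 10, followed by Thrsp (0.925), Retn (0.921) and Hcar1, the lactate receptor of fat cells (0.92). Without the 2 libraries Trf was again the most alike at 0.942 and Hcar1 was at 0.908, while Tdrp (0.928), Hbb-b1 (0.909), a haemoglobin gene, and Cxcl9 (0.905), a chemokine gene, stood beside them. In the 12 amputation set libraries the genes most alike included Pde1b (0.909), Pgr (0.908), the progesterone receptor gene, and Aadac (0.906). None of these genes was among the 10 most alike in both sets.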

How the data were processed

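Poly(A) RNA (500 ng total RNA input) was sequenced strand-specifically, per the labels' protocols. The authors deposited raw counts per gene in 2 tables; the build was GRCm39, per the submitters' processing notes, and the aligner and counter were not given in the sources used here. All count columns were matched to samples by name. Each table was analysed apart with edgeR 4.0.16 in R 4.3.3 (TMM scaling, filterByExpr with a minimum count of 10 and total of 15, robust quasi-likelihood fit with 1 mean per group). P-values were adjusted by the Benjamini-Hochberg method over all genes tested, with a threshold of 0.05, and log2 CPM used a prior count of 2. The procedure was tested on simulated data. Alternatives were edgeR with DESeq2 size factors, no filter, DESeq2 1.42.0, a replicate block, each library left out, and both time course libraries of low TMM factor left out. The rule for named genes took all 10 members, up to 4 genes per list and comparison with the smallest p, and per table the 10 genes most alike, of which 1 is not reported here. Members and lists were chosen with earlier results of these data known. Symbols were found for 99.4% of amputation table identifiers. Transcript lengths and names came from GENCODE M21 and RefSeq tables of build GRCm38.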

Additional observations from a re-analysis of the deposited data

How the results depend on the processing

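Of 1520 values of the 10 genes under the alternatives, 1441 kept their direction and side of the threshold, 19 lost a call, 22 gained one and 38 changed sign, of which 0 were called in the reported fit. The number of the 10 called for amputated against unamputated digits at day 7 was 1, and became 6 with DESeq2, 2 with no filter on low counts and 0 with a replicate block (from 0 to 4 with 1 library left out). For amputated day 14 against day 7 it was 1, and became 3 with DESeq2 and 2 with no filter (0 to 2 with 1 library left out). The averaged amputation count of 4 ran from 2 to 6, the day 14 count of 1 from 0 to 1, the sham day 21 against day 7 count of 0 from 0 to 5, and the count of 0 for a SNI effect differing between days from 0 to 2, the 5 and the 2 being without sham day 21 replicate 2. Without that library sham day 21 was 1 library, and 50.7% of all genes were called there for sham day 21 against day 7. For the 2 in the same setting no share of all genes is given. The same holds for most other counts with no filter or with 1 library left out. Such counts cannot show whether the 10 genes differed from the rest. The cause of these changes in counts was not tested.

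The numbers of replicates were not taken as pairs: same-numbered libraries deviated together with correlations from -0.09 to 0.39 at day 7, 0.11 to 0.24 at day 14 and -0.79 to -0.24 at day 21 in the time course set, and from -0.2 to 0.02 in the amputation set. Beside the day 7 amputation count, the block changed no count of calls among the 10. Over all genes, DESeq2 and the block called 3059 and 1114 genes against 2060 averaged over days, 727 and 115 against 236 at day 7, and 1866 and 56 against 481 at day 14.

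Without both libraries of low TMM factor the day 21 SNI difference changed sign for Adipoq (2.23), Fabp4 (1.68), Cidec (1.96), Cfd (1.82) and Car3 (1.81). The day 14 amputation difference of Plin1, 0.00, changed sign with DESeq2 (0.00), DESeq2 size factors (0.00), no filter (-0.01) and the block (-0.01). With 1 library left out, the SNI differences at day 14 ran from -0.09 to 0.16 for Lpl and -0.12 to 0.13 for Pparg. At day 21 they ran from -1.72 to 2.23 for Adipoq, -1.46 to 1.68 for Fabp4, -0.99 to 1.96 for Cidec, -1.60 to 1.82 for Cfd, -1.0 to 1.81 for Car3, -0.60 to 0.07 for Plin4 and -0.03 to 2.12 for Lep. The amputation differences at day 7 ran from -0.27 to 0.03 for Plin4 and -0.31 to 0.42 for Lep. At day 14 they ran from -0.14 to 0.20 for Plin1, -0.27 to 0.52 for Adipoq, -0.13 to 0.39 for Cidec, -0.11 to 0.11 for Pparg and -0.13 to 0.51 for Cfd, and from amputated day 7 to day 14 Lep ran from -0.62 to 0.01.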
